A study of Mus musculus with 4 samples.

Results

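The comparison described here is between 2 of the 4 arrays of a study of ER71 in day 3 mesoderm, both from an inducible mouse embryonic stem (ES) cell line called iER71. One culture received doxycycline (1 mg/ml, from day 2 to day 3 of differentiation) and the other received none. Cells positive for Flk-1, the VEGF receptor encoded by Kdr, were sorted from both cultures on day 3, and the labels give the line the genotype wild-type. The other arrays hold Flk-1-positive day 3 cells from Er71-/- ES cells and from wild-type ES cells, neither with doxycycline in the labels. All ES cells had been kept on mouse embryonic fibroblast feeders, all RNA was amplified before labelling, and there was 1 array in each of the 4 groups. The labels name no clone, no driver of the inducible gene and no pooling of cultures.

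The labels of the iER71 arrays contradict each other. The array whose source, characteristics and treatment protocol give doxycycline is titled as a control, and the array recorded as without doxycycline is titled ER71 overexpressed. The treatment record is followed here. "Treated" and "untreated" refer to doxycycline alone, a difference is the treated minus the untreated array, and the titles would turn the sign of every difference.

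ER71, encoded by Etv2, is a transcription factor of the ETS family that is switched on briefly in Flk-1-positive mesoderm and is required for blood and endothelial cells to form in the mouse embryo. ETS factors bind DNA around a GGAA core. Flk-1-positive mesoderm can also give rise to heart and smooth muscle, and genes of the primitive streak, of BMP and of Wnt signalling are active as this mesoderm arises.

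Values are log2 of the deposited linear intensity. A gene was compared if it had a probe set with exactly 1 symbol and if at least 1 of the 4 arrays reached the median of the whole table (log2 6.16, an intensity of 71.6), called the detection level below. Of 14860 genes with a symbol of their own, 8843 (59.5%) met this and 6017 did not. Median intensities were 71.3 on the untreated and 72.3 on the treated array. Since each side is 1 array, there is no replicate spread, and no test or p-value is given. Genes are called by size alone, at 2-fold (a log2 difference of 1).

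The sorted marker was bright in both samples. Kdr stood at 9.96 on the untreated and 10.19 on the treated array, beside 9.67 in Er71-deficient and 9.89 in wild-type cells. Etv2 was at 10.05 untreated and 10.50 treated, which is 1.37-fold higher with doxycycline, while Er71-deficient cells were at 8.89 and wild-type cells at 9.39. The untreated iER71 array was thus already above wild type for Etv2. Where the Etv2 probe set lies relative to the inducible gene is not given in the sources used here, which makes it a weak check of the labels.

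Other cell types that the gate could hold were followed through 5 or 6 markers each. The 5 endothelial markers (Cdh5, Pecam1, Tek, Tie1, Emcn) were all detected and all at least 2-fold higher with doxycycline, and their summed linear intensity was 1105 untreated, 5041 treated, 180.2 in Er71-deficient and 1630 in wild-type cells. Blood markers summed to 339.4 untreated and 311.2 treated, with the pan-leukocyte gene Ptprc below the detection level on every array. Feeder fibroblast markers summed to 474.1 and 563.1, none of the 5 reached 2-fold, and Col3a1 and Postn were below the detection level. Pluripotency markers summed to 826.4 and 1156, with Utf1 at least 2-fold higher with doxycycline. Endoderm markers summed to 358.4 and 375.2, with Afp and Ttr below the detection level and Apoa1 not measured. That near-equal sum held opposite differences, with Sox17 at least 2-fold higher and Cer1 at least 2-fold lower with doxycycline. Neuroectoderm markers summed to 1078 and 708.7, with Fabp7, the brightest of them, at least 2-fold lower and Pax6 below the detection level. Otx2 was also lower (7.36 untreated, 6.49 treated), whereas Nes was higher (6.51 and 7.28) and Sox1 was equal. The 3 measured cardiac markers summed to 386.7 untreated and 193.7 treated, with Myl7 at least 2-fold lower, while Myh6 and Actc1 were not measured. In sorted bulk RNA, fewer cells of a type and less RNA per cell cannot be told apart, and the part of these populations in the gene differences below was not tested.

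Among the 8843 genes, the treated array was at least 2-fold higher for 213 (2.41%) and at least 2-fold lower for 109 (1.23%). At 4-fold the counts were 27 each way. The middle of all genes lay at 0: the median difference was 0, the median size of a difference was 0.11, and 5% of genes lay below -0.42 and 5% above 0.68. Exactly equal values on both arrays were found for 1434 genes (16.2%). The higher genes came from low levels, with a median of 6.70 untreated and 8.10 treated, and 71 of the 213 were below the detection level when untreated. The lower genes went the other way, with a median of 8.12 untreated and 6.58 treated, and 44 of the 109 were below the detection level with doxycycline. For these 71 and 44 genes the size of the fold is uncertain, because the background level of the array is unknown. Among the lower genes, Tph1, Msx2 and Zcchc12, identified here because they were so few, did not reach the detection level on either iER71 array.

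**Figure D1:**
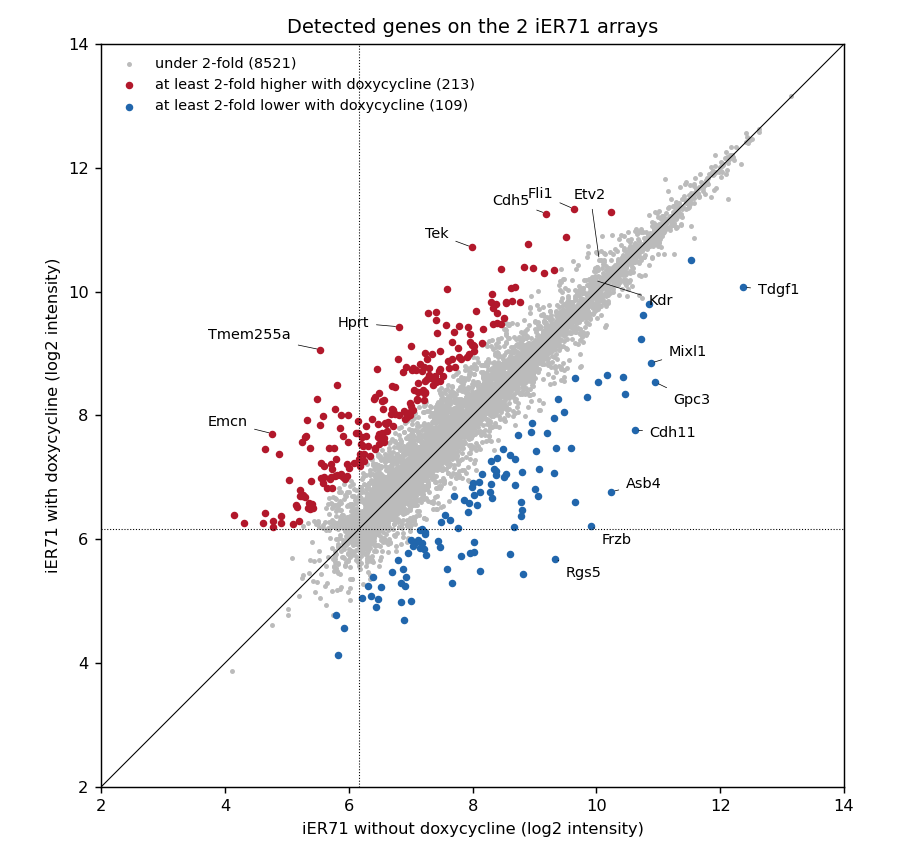
Log2 intensity of each of the 8843 compared genes on the untreated iER71 array (horizontal axis) and on the treated array (vertical axis); red points are the 213 genes at least 2-fold higher with doxycycline, blue points the 109 at least 2-fold lower, and dotted lines mark the detection level of 6.16. Many red points lie left of the vertical dotted line and many blue points below the horizontal one, which are the 71 and 44 genes that missed the detection level on that array.

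At the edges of the 2-fold rule, Plcg2 (6.34 untreated, 7.34 treated) was the higher gene nearest the limit on the inside and Phka1 (5.83 and 6.83) the nearest on the outside. For the lower genes these were Gpr151 (6.40 and 5.39) and Il17rd (9.09 and 8.09). At the detection level, Asb18 (at most 6.16, on the untreated array) was the dimmest gene kept, and Frmd5 (at most 6.16, on the treated array) the brightest left out.

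Because ER71 is an ETS factor, the promoters of the called genes were searched for the letters CCGGAAGT and CAGGAAGT on both strands, in windows from 250 bases before to 50 bases after each start site (RefSeq, GRCm38.p6). The motifs share the letters GGAAGT, neither contains the other, and CAGGAAGT reads ACTTCCTG on the opposite strand. The windows of the 4 genes furthest toward doxycycline that hold a match are printed to show where the letters lie, with the match in capitals and the rest in lower case. Kcne3 is at chr7:100176420-100176719, Egfl7 at chr2:26583615-26583914, Mrc1 at chr2:14229164-14229463 and Rhoj at chr12:75308063-75308362, all on the plus strand.
Kcne3: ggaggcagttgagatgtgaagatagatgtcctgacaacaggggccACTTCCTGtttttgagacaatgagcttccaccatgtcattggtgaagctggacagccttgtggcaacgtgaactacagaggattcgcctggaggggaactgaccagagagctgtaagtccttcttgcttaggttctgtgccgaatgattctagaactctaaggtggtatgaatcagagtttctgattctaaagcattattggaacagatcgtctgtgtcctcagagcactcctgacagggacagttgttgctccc
Egfl7: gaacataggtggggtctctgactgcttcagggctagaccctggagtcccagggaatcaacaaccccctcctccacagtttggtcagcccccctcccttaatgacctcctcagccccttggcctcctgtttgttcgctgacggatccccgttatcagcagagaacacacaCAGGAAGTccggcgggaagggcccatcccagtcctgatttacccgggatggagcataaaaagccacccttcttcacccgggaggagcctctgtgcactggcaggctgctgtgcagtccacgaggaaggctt
Mrc1: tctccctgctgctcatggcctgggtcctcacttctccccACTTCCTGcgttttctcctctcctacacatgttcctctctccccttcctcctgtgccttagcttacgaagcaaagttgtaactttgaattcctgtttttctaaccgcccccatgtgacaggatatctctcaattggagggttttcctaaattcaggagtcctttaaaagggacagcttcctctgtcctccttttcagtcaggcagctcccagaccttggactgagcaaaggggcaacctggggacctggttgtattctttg
Rhoj: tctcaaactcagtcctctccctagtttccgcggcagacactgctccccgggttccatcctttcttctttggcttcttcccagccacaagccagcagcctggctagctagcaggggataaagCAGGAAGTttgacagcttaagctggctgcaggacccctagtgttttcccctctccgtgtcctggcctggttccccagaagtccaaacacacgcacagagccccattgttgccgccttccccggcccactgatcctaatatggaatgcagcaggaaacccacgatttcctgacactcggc
The match begins 205 bases before the start site in Kcne3 (a potassium channel subunit), 81 bases before it in Egfl7 (a protein secreted by endothelium), 211 in Mrc1 (the mannose receptor) and 129 in Rhoj (a small GTPase of endothelium). Windows were at hand for 156 of the 213 higher genes, and 9 of their 210 windows held a motif (4.29%), 8 of them CAGGAAGT and 1 CCGGAAGT. For the lower genes it was 1 of 108 windows (0.926%), from 85 of the 109 genes. Over all 32851 windows of the table the share was 7.07%, and over the 9249 windows of the compared genes 10.8%. The motifs differed in this: CAGGAAGT was in 3.81% of the windows of the higher genes and in 2.98% of those of the compared genes, whereas CCGGAAGT was in 0.476% and 8.13%. A window without these letters says nothing about binding elsewhere or to other letters.

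The endothelial side led the higher genes. The list of endothelial surface and junction genes had 34 entries, of which 31 were measured and 27 compared. Of these 27, 15 were at least 2-fold higher on the treated array and none at least 2-fold lower, with a median difference of 1.29 beside 0 over all genes. Among the 17 detected on both iER71 arrays, 9 were at least 2-fold higher and the median was 1.04. The 15 were Cdh5, Pecam1, Emcn, Esam, Cldn5, Icam2, Cd34, Tjp1, Cd93, Egfl7, Tie1, Tek, Thsd1, Myct1 and Mmrn2. The other 12 ranged from -0.36 to 0.96, the last being F11r, a junctional adhesion molecule.

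Tek, the angiopoietin receptor, was at 7.99 untreated and 10.72 treated, with 4.62 in Er71-deficient and 8.84 in wild-type cells, and was 6.61-fold higher with doxycycline. Cdh5, the cadherin of endothelial junctions, was at 9.19 and 11.26, with 5.08 in deficient and 9.34 in wild-type cells (4.19-fold). For both genes the order of the arrays was deficient lowest, then untreated, wild type and treated. Emcn, an endothelial sialomucin, showed another pattern: it was at 4.76 untreated, 4.32 in deficient and 4.78 in wild-type cells, all below the detection level, and at 7.71 treated. Myct1, a membrane protein gene of endothelium, likewise reached the detection level on the treated array alone, at 8.27, with 5.49 untreated, 4.32 deficient and 5.82 wild type. Cldn5, the tight-junction claudin of vessels, followed at 5.98 untreated and 8.01 treated, with 5.19 in deficient and 5.80 in wild-type cells (4.09-fold). Tjp1, a scaffold of tight junctions in many epithelia, was among the brightest genes past 2-fold, at 10.24 and 11.28 (2.06-fold).

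Transcription factors of endothelium and blood divided along the same line. Of 37 listed, 34 were compared, and 11 were at least 2-fold higher with doxycycline: the ETS genes Fli1, Erg, Ets1, Ets2 and Elk3, the Sox genes Sox7, Sox17 and Sox18, and Mef2c, Ikzf2 and Bcl6b. One, Gata3, was 2.49-fold lower, and the list's median was 0.14. With an offset of 32 on the linear scale 7 were higher, without Erg, Mef2c, Ikzf2 and Sox17. Fli1 was at 9.64 untreated, 11.33 treated, 5.39 in deficient and 9.73 in wild-type cells, and was 3.24-fold higher with doxycycline. Elk3 was at 8.31, 9.96, 6.26 and 8.30 on the same arrays in that order (3.13-fold). Untreated and wild-type values nearly coincided for both. Sox7 (2.98-fold) and Bcl6b (2.98-fold), factors of early endothelium, were higher by the same fold, although Bcl6b was just below the detection level when untreated (6.14). Blood regulators of the Flk-1 mesoderm marker set lay closer together. Tal1 differed by 0.13 (7.42 and 7.55), Lmo2 by 0.20 (8.73 and 8.93) and the blood marker Gata1 by -0.13, the last below the detection level on both iER71 arrays. Runx1, a blood factor of the list outside that marker set, was lower without reaching 2-fold. It was at 7.24 untreated and 6.33 treated (-0.90), with 7.42 in deficient and 7.92 in wild-type cells. Myb differed by -0.19 and Gata2 by 0.26. The embryonic globin genes did not follow the endothelial genes: Hbb-y was at 5.63 untreated and 4.94 treated against 8.71 in wild type, and Hba-x at 6.90 and 6.49 against 7.61.

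**Figure D2:**
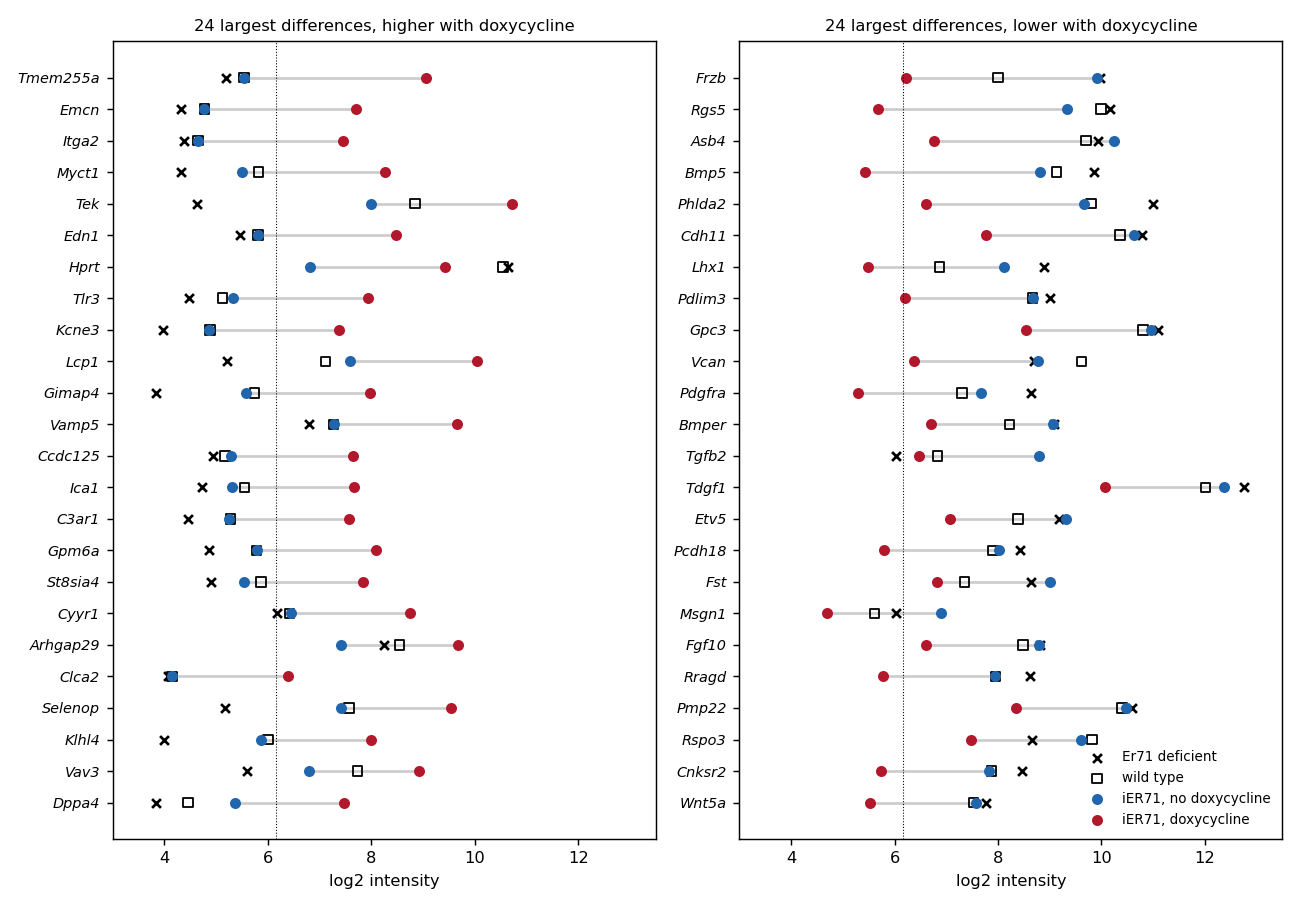
Log2 intensity (horizontal axes) on all 4 arrays of the 24 genes with the largest differences higher (left) and lower (right) with doxycycline, 1 gene a row; filled circles are the iER71 arrays, joined by a line, squares are wild type, crosses are Er71-deficient cells, and the dotted line is the detection level. Among the genes on the left, most wild-type squares lie nearer to the untreated than to the treated circle, while the square and the cross of Hprt lie to the right of both circles.

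The list of VEGF, angiopoietin, platelet-derived growth factor and Kit receptors and ligands gave 4 higher and 1 lower of 14 compared genes (26 listed). Its median was -0.01, and the genes past 2-fold were all receptors, with no compared ligand among them. Beside Tek and its relative Tie1 (2.64-fold), the higher ones were Flt1, another VEGF receptor, at 8.69 and 10.07 (2.61-fold), and Kit, the stem cell factor receptor, at 7.60 and 8.88 (2.44-fold). Pdgfra, the platelet-derived growth factor receptor of mesenchyme, was the lower one. It was at 7.67 untreated and 5.30 treated, against 8.64 in deficient and 7.31 in wild-type cells (5.17-fold lower), so the treated array was the dimmest of the 4.

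In the peptide, chemokine and lipid receptor systems, 3 of 21 compared genes were past 2-fold higher and 2 past 2-fold lower (median 0.24). Edn1, the endothelin precursor, was at 5.81 untreated and 8.49 treated (6.40-fold), and wild type was at 5.81 too. Ramp2, the partner of the adrenomedullin receptor, was at 8.30 and 9.83 (2.90-fold), with 5.0 in deficient and 8.40 in wild-type cells. S1pr1, the receptor for sphingosine-1-phosphate, was 2.56-fold higher. Both receptors for the chemokine Cxcl12 were lower. Cxcr4, through which cells migrate toward it, was at 8.02 untreated and 5.96 treated, with 8.75 in deficient and 8.18 in wild-type cells (4.18-fold lower). Ackr3, which scavenges it, was at 6.79 and 5.66 (2.19-fold lower, or under 2-fold with an offset of 32 added to the intensities).

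The second group with many members on the higher side was the list of small GTPase regulators, which also holds some small GTPases themselves. Such regulators set the activity of small GTPases such as Rac, Rap and Ras and with it cell shape and adhesion. Among the genes past 2-fold, Rhoc, Rhoj and Rnd3 are small GTPases. Of 52 listed, 31 were compared, 11 were at least 2-fold higher with doxycycline, 1 was at least 2-fold lower and the median was 0.62 (0.34 over all 39 measured genes). The 11 were Rasgrp3, Arhgap18, Arhgap25, Arhgap29, Arhgap31, Rhoc, Rhoj, Elmo1, Rapgef5, Vav3 and Rgl1. Arhgap29, which switches off small GTPases, was at 7.41 untreated and 9.67 treated (4.78-fold), with 8.25 in deficient and 8.54 in wild-type cells. Vav3, an exchange factor for small GTPases such as Rac, was at 6.79 and 8.91 (4.36-fold), with 5.60 and 7.73. Here wild type lay between the iER71 arrays, and the untreated array was the lowest of the 4 for Arhgap29 but not for Vav3. Arhgap31 (3.42-fold), Arhgap18 (3.33-fold) and Rgl1 (3.19-fold) followed. Rnd3, an atypical small GTPase, was the lower one, with a difference of -1.55.

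Heterotrimeric G protein genes were mixed, with 3 of 27 compared genes higher, 1 lower and a median of 0.01. Gng11, a gamma subunit, was at 7.01 and 9.11 (4.30-fold), Rgs2, which dampens Gq signalling, at 7.29 and 8.77 (2.78-fold) and Gng3 at 7.43 and 8.56 (2.19-fold). Rgs5, a regulator typical of pericytes, was at 9.33 untreated and 5.69 treated, against 10.16 in deficient and 9.99 in wild-type cells (12.5-fold lower). A second Rgs5 probe set had the same direction and a smaller difference, -1.55 against -3.64.

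Adhesion and guidance receptors had members on both sides. Among 25 compared integrin and tetraspanin genes, the collagen receptor subunit Itga2 went from 4.65 to 7.45 (6.96-fold) and Tspan18 from 7.23 to 9.01 (3.43-fold), whereas Itga8 went from 6.52 to 5.22 (2.47-fold lower). The median was 0.20. Among 38 compared guidance genes (65 listed), 2 were higher and 5 lower, with a median of -0.15 (2 and 2 with the offset of 32, 2 and 3 with both iER71 arrays detected). Plxnd1, the endothelial receptor of semaphorin 3E, was at 7.42 untreated and 9.33 treated (3.74-fold), and Sema6d at 7.67 and 8.91 (2.37-fold). The 5 lower ones were the ephrin receptor Epha4 (3.03-fold), its ligand gene Efna5, the semaphorin Sema3a (2.38-fold) and the plexins Plxna2 (2.31-fold) and Plxna4. Receptors of one family therefore lay on opposite sides of the comparison.

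Leukocyte and innate immune genes were mostly dim: of 54 measured, 36 were below the detection level and 18 compared. Of these, 5 were at least 2-fold higher with doxycycline, none at least 2-fold lower and the median was 0.34. The median was 0.00 over all 54 measured genes, and 0.09 with 3 higher over the 11 detected on both iER71 arrays. Lcp1, an actin-bundling protein of blood cells, was at 7.58 untreated and 10.04 treated (5.53-fold), with 5.20 in deficient and 7.12 in wild-type cells. Tlr3 (6.08-fold) and Gimap4 (5.30-fold) were below the detection level when untreated. Tlr2 (2.28-fold) and Irf2 (2.09-fold) completed the 5. C3ar1, the complement C3a receptor, was also among the 24 genes furthest toward doxycycline, at 5.24 and 7.57. Pan-leukocyte Ptprc was at 3.39 on all 4 arrays, below the detection level.

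Further genes among these 24 were outside all the lists. Tmem255a, a membrane protein gene, had the largest difference, from 5.54 to 9.06 (11.5-fold), with 5.54 in wild type and 5.20 in deficient cells. Kcne3 was at 4.86 and 7.38, and St8sia4, which adds polysialic acid to cell-surface proteins, at 5.53 and 7.84. Vamp5, a vesicle fusion protein, was at 7.27 and 9.66, and its second probe set gave a difference of 2.50 against 2.38 for the one used. Cyyr1 was at 6.45 and 8.75 (4.94-fold), Klhl4 at 5.87 and 8.0 (4.36-fold). A pair of bright genes was also higher: Prcp, a lysosomal carboxypeptidase that cleaves angiotensin, was at 8.89 and 10.77 (3.66-fold), and the metallothionein Mt2 at 9.51 and 10.88 (2.58-fold).

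Selenop, the plasma selenium carrier, stood out among 27 compared selenoprotein and antioxidant genes, at 7.40 untreated and 9.54 treated, with 5.18 in deficient and 7.57 in wild-type cells (4.40-fold). Haem oxygenase, Hmox1, was at 7.94 and 8.99 (2.06-fold, under 2-fold after quantile normalization or the offset). Prdx2 set the iER71 line apart, at 8.85 untreated and 7.99 treated against 11.10 and 11.28 in the other lines. Coagulation genes were mainly dim, with 9 of 19 measured genes compared. The single one past 2-fold was Tfpi, the tissue factor pathway inhibitor, at 7.27 and 8.59 (2.50-fold). In the germline list, 11 of 36 measured genes were compared and 3 were higher: Dppa4 (4.32-fold), the meiotic axis gene Sycp3 (3.46-fold) and the helicase gene Ddx4 (2.84-fold). All 3 were below the detection level when untreated, so none is left if both iER71 arrays must be detected. Sycp3 and Ddx4 were lower in wild type than in deficient cells (4.82 against 5.45 and 4.65 against 5.54), which is not the order of the endothelial genes.

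The lower side was led by genes of the primitive streak and the cardiac programme. Every one of the 26 compared streak and presomitic genes had a difference below 0, from -3.69 to -0.03, with a median of -0.37. Some were kept through another array than the treated one. The median was -0.25 over all 33 measured genes, and -0.17 with 6 at least 2-fold lower over the 16 detected on both iER71 arrays. Without the filter not every gene lay below 0: Foxc2 differed by 0.21 (5.93 and 6.14), and Pax1 and Pax3 were equal on both iER71 arrays. Among all genes 39.1% lay below 0. The 9 that were at least 2-fold lower with doxycycline were Mixl1, Eomes, Lhx1, Mesp1, Msgn1, Cyp26a1, Rspo3, Fst and Frzb, and none was at least 2-fold higher. Mixl1, a homeobox gene of the streak, was at 10.88 untreated and 8.85 treated, with 10.55 in deficient and 10.11 in wild-type cells (4.09-fold lower). Lhx1 was at 8.12 and 5.49, with 8.89 and 6.87 (6.21-fold lower). Msgn1, which drives presomitic mesoderm, was at 6.89 and 4.70, with 6.03 and 5.61 (4.57-fold lower). The treated array was the dimmest of the 4 for each of these 3, and for Msgn1 the untreated array alone reached the detection level.

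Of 23 compared cardiac genes (41 listed), 8 were at least 2-fold lower with doxycycline, none was at least 2-fold higher and the median was -0.50 (-0.27 over all 34 measured genes; 5 of 18 lower among those detected on both iER71 arrays). The 8 were Gata4, Tbx20, Mesp1, Fgf10, Tbx3, Myl7, Tnnc1 and Cnn1. Gata4, a factor of heart and endoderm, was at 8.31 untreated and 6.67 treated, with 8.65 in deficient and 8.47 in wild-type cells (3.11-fold lower). Myl7, the atrial myosin light chain, was at 7.0 and 5.01, with 8.81 and 6.70 (3.98-fold lower). Mesp1, an early factor of cardiac mesoderm, was at 7.44 and 5.98, with 8.33 and 6.97 (2.76-fold lower). In all 3 the treated array was lowest and the deficient array highest. Nkx2-5 (-0.46) and Tnnt2 (-0.87) lay below 0 without reaching 2-fold.

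**Figure D3:**
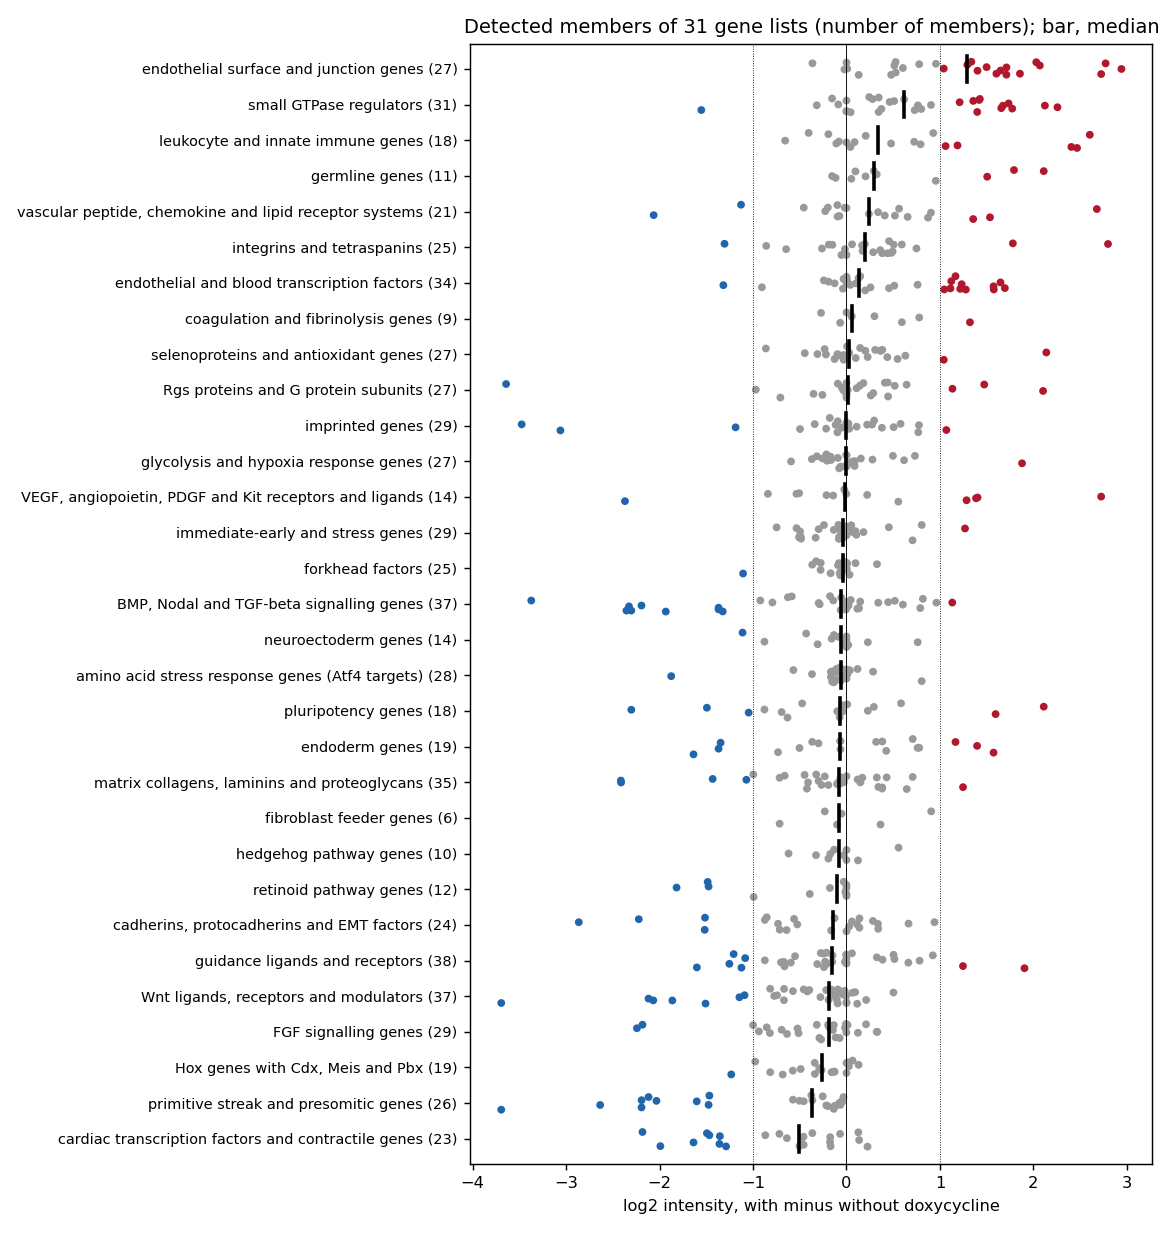
Difference in log2 intensity (treated minus untreated, horizontal axis) of each compared member of 31 gene lists, 1 row a list with the number of members, ordered by median (black bar); red and blue points are members at least 2-fold higher and lower with doxycycline, and vertical spread within a row only separates points. The endothelial surface list lies furthest right (median 1.29) and the cardiac list furthest left (median -0.50), and most other medians lie near 0.

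The BMP, Nodal and TGF-beta list held single members with large differences. Of its 37 compared genes, 9 were at least 2-fold lower, 1 at least 2-fold higher and the median was -0.06. Among the ligands, Bmp5 was at 8.81 untreated and 5.44 treated (10.4-fold lower), with 9.85 in deficient and 9.13 in wild-type cells, and Tgfb2 was at 8.80 and 6.47 (5.02-fold lower), with 6.03 and 6.83. Tgfb2 was thus brightest on the untreated array, with treated and wild-type cells close together. Tdgf1, the Nodal co-receptor Cripto, was one of the brightest genes of the comparison, at 12.37 untreated, 10.07 treated, 12.76 deficient and 12.01 wild type (4.93-fold lower). Bmper, which binds BMPs, was at 9.06 and 6.70 (5.11-fold lower), and the activin-binding Fst at 9.01 and 6.81 (4.57-fold lower). Bmp4, Cfc1, Cer1 and Msx2 completed the 9. The higher one was Tgfbr3, the co-receptor betaglycan, with a difference of 1.13.

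Of 37 compared Wnt genes (64 listed), 7 were at least 2-fold lower with doxycycline and none at least 2-fold higher, with a median of -0.19. Frzb, a secreted Wnt antagonist, was at 9.91 untreated and 6.21 treated, with 9.97 in deficient and 8.0 in wild-type cells, and its 12.9-fold difference was the largest on the lower side. The agonist Rspo3 was at 9.60 and 7.48, with 8.65 and 9.82 (4.34-fold lower). Wnt5a was at 7.58 and 5.52 (4.19-fold lower), Dact1 at 6.85 and 4.99 (3.64-fold lower) and the receptor Fzd7 at 8.28 and 6.77 (2.84-fold lower). Lgr5, the R-spondin receptor, and the nuclear effector Lef1 completed the 7. Lists share members, so their counts are not separate from each other. Frzb and Rspo3 are also among the lower streak genes, as are Fst of the BMP list, Cyp26a1 of the retinoid list and Mesp1 of the cardiac list. Members with opposite roles in the pathway were therefore lower together.

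FGF signalling had 2 of 29 compared genes at least 2-fold lower and none higher, with a median of -0.19. Etv5, an ETS factor induced by FGF, was at 9.32 untreated and 7.07 treated, with 9.18 in deficient and 8.39 in wild-type cells (4.73-fold lower), and Fgf10 was at 8.79 and 6.61 (4.54-fold lower). Fgf10 is also among the lower genes of the cardiac list. The feedback inhibitors Spry4 (-0.94) and Spred1 (-0.85) were lower by less than 2-fold. Etv5 was thus on the opposite side from the ETS genes Fli1, Erg, Ets1, Ets2 and Elk3.

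Some genes of retinoid handling were lower. No compared gene of that list had a difference above 0, with 8 of 12 below 0, 4 equal and 3 at least 2-fold lower (median -0.10). Aldh1a2, Rbp4 and Stra6 were kept through another array than the treated one. The median was -0.04 over all 17 measured genes, where Aldh1a1 lay above 0 (0.02). It was -0.01, with 3 at least 2-fold lower, over the 9 detected on both iER71 arrays. Crabp1, which binds retinoic acid in the cytoplasm, was at 10.43 untreated and 8.61 treated, with 10.60 in deficient and 9.50 in wild-type cells (3.53-fold lower). Crabp2 was at 7.93 and 6.45 (2.80-fold lower). Cyp26a1, the enzyme that degrades retinoic acid, was at 9.20 and 7.72, with 8.76 and 8.28 (2.78-fold lower). Aldh1a2, which makes retinoic acid, was 1.99-fold lower but below the detection level on both iER71 arrays (6.02 and 5.02).

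Mesenchymal adhesion and matrix genes contributed single large differences. In the cadherin and EMT list, 4 of 24 compared genes were at least 2-fold lower and none higher, with a median of -0.15. Cdh11, a cadherin of mesenchyme, was at 10.63 untreated and 7.76 treated, with 10.78 in deficient and 10.35 in wild-type cells (7.28-fold lower). Cdh2, N-cadherin, was at 10.17 and 8.65, with 10.09 and 9.49 (2.86-fold lower). For both cadherins the treated array was the dimmest of the 4, whereas for Cdh5 it was the brightest. The protocadherins Pcdh18 (4.67-fold) and Pcdh7 (2.86-fold) were lower as well. In the matrix list, 4 of 35 compared genes were lower and 1 higher, with a median of -0.08. Vcan, a large proteoglycan, was at 8.78 and 6.37 (5.32-fold lower), the hyaluronan synthase Has2 at 9.48 and 8.05 (2.70-fold lower) and the glypicans Gpc3 and Gpc4 were lower too. Nid1, a basement membrane protein, was at 7.46 and 8.71 (2.37-fold higher).

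Among 19 compared Hox, Cdx, Meis and Pbx genes, Hoxb2 alone reached 2-fold, at 7.17 untreated and 5.94 treated (2.35-fold lower, or under 2-fold with the offset), and the list's median was -0.27. Hoxb1 was 1.97-fold lower. Among 25 forkhead genes, Foxh1, a partner of Smad proteins in Nodal signalling, was the single one past 2-fold, at 8.01 and 6.91 (2.15-fold lower). Imprinted genes had a median of 0.00 and 4 of 29 past 2-fold. Phlda2, a growth-restraining gene of the placenta, was at 9.66 untreated and 6.60 treated, with 10.99 in deficient and 9.80 in wild-type cells (8.34-fold lower). Asb4 was at 10.24 and 6.77, with 9.93 and 9.71 (11.1-fold lower), and Magel2 at 6.96 and 5.78 (2.28-fold lower). The noncoding RNA H19 was the higher one, at 8.51 and 9.58 (2.10-fold), but both iER71 arrays were below deficient (10.30) and wild-type cells (10.78).

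Other genes among the 24 with the largest lower differences had varied roles. Pdlim3, a muscle Z-disc protein gene, was at 8.67 untreated and 6.19 treated, with 9.01 in deficient and 8.67 in wild-type cells (5.57-fold lower). Rragd, a Rag GTPase of amino acid sensing, was at 7.95 and 5.78 (4.50-fold lower). Pmp22, a membrane protein of myelin and of other tissues, was at 10.47 and 8.34 (4.35-fold lower), and Cnksr2, a signalling scaffold, at 7.82 and 5.73 (4.25-fold lower). At the bright end, the amino acid transporter gene Slc38a4 (11.52 and 10.52) and the membrane glycoprotein gene Emb (10.84 and 9.80) were just past 2-fold lower.

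Several pathways showed little at this size. None of 10 compared hedgehog genes and none of 6 compared feeder fibroblast genes reached 2-fold, with medians of -0.08 each, and Ptch1, receptor and target of hedgehog, was at 8.06 and 7.44. Of 28 targets of the amino acid stress factor Atf4, Vldlr alone did (9.34 and 7.47, 3.67-fold lower). Of 29 immediate-early and stress genes, Gadd45g alone did (7.33 and 8.60, 2.41-fold higher). Of 27 glycolysis and hypoxia genes, Pdk1, which restrains the use of pyruvate in mitochondria, alone did (6.42 and 8.30, 3.68-fold higher). Their medians were -0.06, -0.03 and 0.00. Of 14 neuroectoderm genes, Fabp7 alone reached 2-fold (9.38 and 8.27, 2.16-fold lower). Pluripotency genes had 2 higher (Utf1, Dppa4) and 3 lower (Tbx3, Tdgf1, Lin28a) of 18, with Pou5f1 at 8.68 and 9.26 and Nanog at 7.20 and 6.73. Endoderm genes had 3 higher (Sox17, Dab2, Sox7) and 3 lower (Cer1, Gata4, Spink1) of 19. Of the higher endoderm genes, Sox7 and Sox17 are also in the endothelial factor list. Tbx3 and Gata4 are also in the cardiac list, Tdgf1 and Cer1 in the BMP list and Dppa4 in the germline list.

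Hprt, a purine salvage enzyme often used as a reference gene, was among the genes furthest toward doxycycline and did not behave like the others. It was at 6.81 untreated and 9.43 treated (6.14-fold higher), yet at 10.64 in Er71-deficient and 10.55 in wild-type cells. Both iER71 arrays were therefore below both other lines, which among the 213 higher genes was true of Hprt and H19 alone. As background, in one widely used design of doxycycline-inducible mouse ES cells the inducible gene lies beside Hprt on the X chromosome. The labels do not say where it lies in iER71, and its part in the Hprt value was not tested.

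The genes around Hprt on the X chromosome, in the order of the reference gene table, did not share its difference by treatment. Like Hprt, Plac1, Fam122b and, by little, Mospd1 were lower on both iER71 arrays than in both other lines. The neighbours Phf6 (8.76 untreated, 8.91 treated) and Mospd1 (9.36 and 9.40) differed little and were close to the other lines. Plac1, on the other side from Phf6, was at 6.35 and 6.24 against 7.49 in deficient and 8.64 in wild-type cells, and Fam122b was at 6.92 and 6.68 against 7.97 and 8.04. These genes were thus lower in the iER71 line with little difference by treatment. The 3 neighbours beyond Phf6 and nearest to it were lower with doxycycline: A630012P03Rik was at 8.61 and 5.76 (7.22-fold lower), Gpc3 at 10.95 and 8.54 (5.33-fold) and Gpc4 at 6.31 and 5.24 (2.10-fold). Gpc3 on the untreated array was close to deficient (11.10) and wild-type cells (10.81). Usp26, Fam122c and Etd were below the detection level on all arrays.

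**Figure D4:**
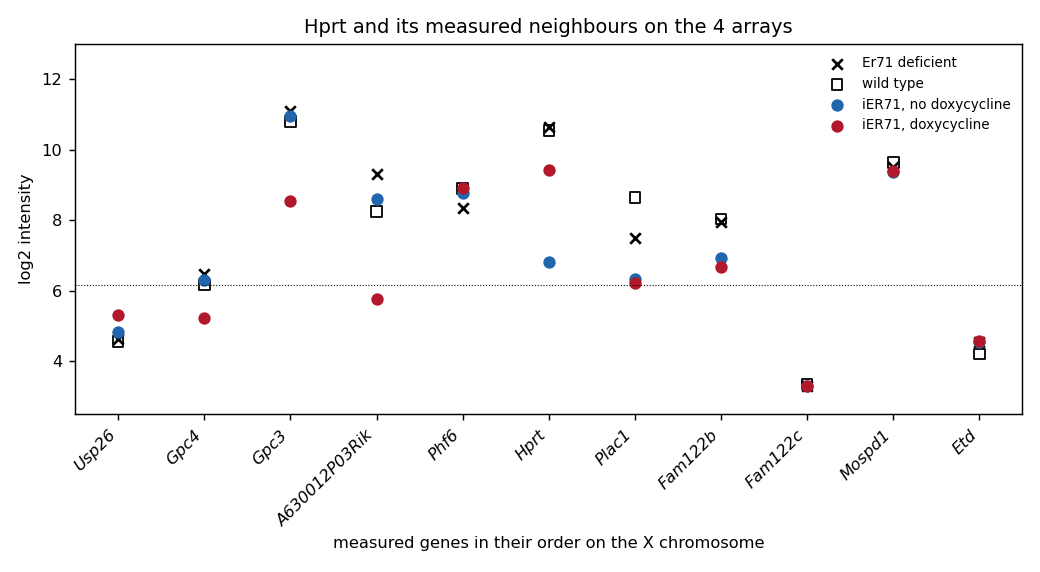
Log2 intensity (vertical axis) on the 4 arrays of Hprt and the 5 nearest measured genes on each side, in their order on the X chromosome (equal spacing, not to scale); symbols are as in the plot of the largest differences, and the dotted line is the detection level. Hprt on the untreated array (6.81) lies far below the other lines, while Gpc3 and A630012P03Rik are low on the treated array.

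The Er71-deficient and wild-type arrays share no array with the iER71 pair, so the same genes can be read there. In that pair 140 of the 8843 genes (1.58%) were at least 2-fold lower in deficient cells and 38 (0.43%) at least 2-fold higher. Of the 213 genes higher with doxycycline, 190 (89.2%) were lower in Er71-deficient than in wild-type cells, compared with 52.9% of all genes, and 18 were higher. Their median difference there was -0.60 beside -0.01 over all genes. The count is of direction alone. Some of the 213, such as Emcn (4.32 in deficient, 4.78 in wild-type cells), Mmrn2 and Clca2, were below the detection level on both these arrays. For such genes the direction is uncertain. Of the 109 genes lower with doxycycline, 89 (81.7%) were higher in deficient cells, compared with 30.6% of all genes, with a median of 0.41. Past 2-fold both times were 55 of the 213 (25.8%) in the direction lower in deficient and 14 of the 109 (12.8%) in the direction higher in deficient, which are 39.3% of the 140 and 36.8% of the 38. The exceptions past 2-fold were Olfr1155, an olfactory receptor gene higher both times, and Rspo3, Lgr5, Sema3a and Spink1, lower both times; Olfr1155 and Lgr5 were named after their values were seen.

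Size in one pair did not carry over to the other for every gene. Fli1, Cdh5 and Tek differed by more in the deficient pair (20.3-fold, 19.2-fold and 18.6-fold) than in the iER71 pair, although all were below the detection level in deficient cells, which leaves those folds uncertain. Tmem255a, Itga2 and Edn1, among the genes furthest toward doxycycline, differed by only -0.34, -0.27 and -0.34 in the deficient pair, where they were below the detection level on both arrays. Rgs5, Asb4 and Gpc3 were likewise far apart in the iER71 pair but differed by at most 0.29 between deficient and wild-type cells.

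**Figure D5:**
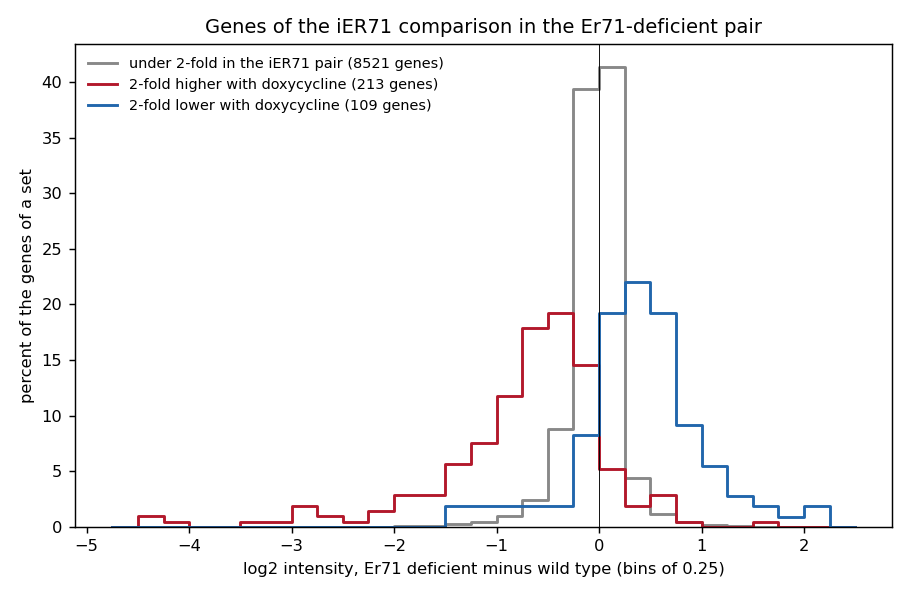
Distribution of the difference in log2 intensity between Er71-deficient and wild-type cells (horizontal axis, bins of 0.25) for the 213 genes at least 2-fold higher with doxycycline (red), the 109 at least 2-fold lower (blue) and the 8521 others (grey); the vertical axis is the percent of genes of each set. The red outline lies mostly left of 0 and the blue outline mostly right of 0, with medians of -0.60 and 0.41.

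Of the 213 higher genes, 107 had a wild-type value strictly between the untreated and the treated one, 38 had it exactly equal to the untreated one, 66 below both and 2 (Hprt and H19) above both. Of the 109 lower genes, 61 had it strictly between, 6 equal to the untreated one, 37 above both and 5 below both. Those 5, looked up because they were few, were Fabp7, Gbp2, Psmb8, Trh and Cer1. Over all genes 21.3% lay strictly between, 32.4% above both and 19.2% below both, and the rest were ties: 22.6% equalled the untreated value and 13.6% the treated value, with genes tied to both counted in each. Called genes are by choice at least 2-fold apart on the iER71 arrays, which leaves more room between them than for most genes. The shares over all genes are therefore not a fair gauge of the counts strictly between. The deficient value was below both iER71 arrays for 187 of the 213 and above both for 73 of the 109. The matching shares over all genes are not given here, so these counts alone do not show a departure from them.

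Every value above is a single array. The labels leave undecided which of the iER71 cultures had more ER71; Etv2 was 1.37-fold higher on the doxycycline array. With an offset of 32 added to the intensities, 26 of the list members and genes of the naming rule that were past 2-fold were under it: Ackr3, Cd93, Efna5, Erg, Foxh1, Gpc4, Gpr151, Hmox1, Hoxb2, Ikzf2, Irf2, Itga8, Lef1, Lgr5, Lin28a, Magel2, Mef2c, Msx2, Plcg2, Plxna2, Plxna4, Slc38a4, Sox17, Tbx20, Tgfbr3 and Tlr2.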

How the data were processed

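RNA from day 3 Flk-1-positive mouse cells was profiled on 4 Affymetrix arrays, 1 in each of 4 groups. The authors deposited linear intensity values, already summarised and normalized, for 23332 probe sets; per the submitters' processing notes, the software was Affymetrix Expression Console with RMA, and mm8 is the build named (no versions or parameters are listed there). The deposited intensity is linear, so its log2 was taken here. No detection call was used.

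Groups follow the source, characteristics and treatment protocol of each array, which the titles of the iER71 arrays contradict. Symbols came from the platform's annotation, which gives 14996 probe sets 1 symbol, 1019 more than 1, and 7317 no symbol. For 135 genes with several probe sets the brightest on average was used. The gene numbers of 14941 probe sets were in the reference table, and 0 symbols changed.

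Genes named are Etv2, Kdr and Hprt; the 24 largest differences each way without predicted gene models and olfactory or vomeronasal receptors (4 such symbols passed 2-fold); the 10 largest each way among genes detected on both iER71 arrays; the 5 brightest past 2-fold each way; up to 5 members of each of 31 lists; the 5 nearest measured genes on each side of Hprt; cell type markers; and genes at the edges of the thresholds. Where all members of a list past 2-fold are given, some fall outside this rule. The comparison, the lists (1255 entries) and these rules were chosen with earlier results of these data known.

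With 1 array a group there is no error or p-value, and the number of arrays limits the precision. Alternatives were no filter, a stricter filter, median centring, quantile normalization and cyclic loess (limma 3.58.1, R 4.3.3), an offset of 32 on the linear scale, the mean of a gene's probe sets, folds of 1.5 and 4, the direction of the titles, and leaving out tied genes. Python 3.11.15 with pandas 2.3.3 was used. Promoters were RefSeq windows of GRCm38.p6; no coordinates of probe sets were used.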

Additional observations from a re-analysis of the deposited data

Results flagged for a closer look

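Probe sets without a symbol of their own lay outside the gene comparison, and they also differed between the iER71 arrays. Of 3789 such probe sets that reached the detection level, 148 (3.91%) had a treated value at least 2-fold above the untreated one and 40 (1.06%) at least 2-fold below it. The probe sets carry no symbol or several in the annotation used here, so none is named. No control array of the same line and treatment exists for a gauge of these shares.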

How the results depend on the processing

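Single arrays give no spread, so each alternative shows only how a count moves. The 213 higher and 109 lower genes became 142 and 65 when both iER71 arrays had to reach the detection level, 137 and 72 with an offset of 32 on the linear scale, 558 and 280 at 1.5-fold and 27 and 27 at 4-fold. The direction of the titles exchanges the counts to 109 higher and 213 lower. Without a filter (257 and 138), after median centring (207 and 114), quantile normalization (192 and 120) or cyclic loess (203 and 113), with the mean of a gene's probe sets (212 and 109) and without tied genes (213 and 109), the counts stayed within 1.5 times. No named gene past 2-fold changed sign under the 7 processing alternatives recomputed gene by gene, of which the stricter filter kept 135 of the 194 named genes. The offset put 26 named genes and list members under 2-fold, quantile normalization 4 (Hmox1, Ikzf2, Irf2 and Plcg2), cyclic loess 2 (Gpr151 and Plcg2) and median centring 1 (Plcg2). List medians depend on the filter, including those away from 0: with no filter the small GTPase list went from 0.62 to 0.34, the leukocyte list from 0.34 to 0.00, the germline list from 0.29 to 0.06, the Hox list from -0.27 to -0.04 and the cardiac list from -0.50 to -0.27. With the stricter filter the streak list went from -0.37 to -0.17, the endoderm list from -0.07 to 0.35, and the 3 higher germline genes to 0. No paired analysis was possible because each group has 1 array. Signals below the detection level limit the folds of 71 higher and 44 lower genes.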
